A study of Mus musculus with 12 samples.

Results

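Heart muscle genes were examined in lungs of newborn cavin-1 KO and WT mice, gene by gene and lung by lung. The set held 10 genes of cardiac muscle, not all of them particular to the atrium, chosen by symbol: *Myh6*, *Myl7*, *Myl4*, *Nppa*, *Tnnt2*, *Tnni3*, *Actc1*, *Sln*, *Actn2* and *Pln*. Mouse lung expresses such genes in the walls of its pulmonary veins. They accounted for 15 of the 45281 probes on the array and covered 9 of the 10 genes. *Tnnt2*, the cardiac troponin T, was not analysed here.

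RNA came from lungs of 6 KO mice (cavin-1 deficient, C57/bl6) and 6 WT littermates on the same background, with 1 Illumina array per mouse. All were newborn, at most 6 h old by the sample labels, and the methods give a wider limit. The KO allele is constitutive, so by design every cell type of the KO lung, vein muscle included, lacks the gene. The methods say that lungs were dissected and frozen. They do not say whether veins, great vessels or parts of the atria were removed or left on.

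In rodents the heart type of muscle does not end at the left atrium. A sleeve of cardiomyocytes continues along the pulmonary veins into the lung, and these cells contract with the atrium. Atrial cardiomyocytes are told from ventricular ones by their light chains (*Myl7* and *Myl4*, against *Myl2* and *Myl3* in ventricle), by sarcolipin, and by the storage of atrial natriuretic peptide. RNA of dissected lung cannot tell vein sleeve from a remnant of atrium, nor fewer cells from less RNA per cell.

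The stretch of 250 bases before the RefSeq start is shown for 4 genes whose levels are set side by side below: *Actc1*, *Myl7*, *Nppa* and the skeletal marker *Acta1*. Sequences are from RefSeq, build GRCm38.p6, and 9 of the 10 genes had an entry. Capitals mark CArG boxes, the binding motif of serum response factor, searched on both strands with an inner part of A and T only. In *Myl7* and *Nppa* they also mark TGATAA, one form of the GATA factor motif. The other form searched was AGATAA, both on either strand. *Acta1* encodes the skeletal α-actin. The windows are chr2:114052876-114053125 for *Actc1*, chr11:5898783-5899032 for *Myl7* and chr8:123894776-123895025 for *Acta1*, all on the minus strand, and chr4:148000472-148000721 for *Nppa* on the plus strand.
Actc1: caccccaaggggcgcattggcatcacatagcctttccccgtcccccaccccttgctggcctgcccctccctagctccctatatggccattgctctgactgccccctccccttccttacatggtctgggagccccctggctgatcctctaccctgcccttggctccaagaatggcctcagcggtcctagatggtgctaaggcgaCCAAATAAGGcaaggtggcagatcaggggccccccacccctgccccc
Myl7: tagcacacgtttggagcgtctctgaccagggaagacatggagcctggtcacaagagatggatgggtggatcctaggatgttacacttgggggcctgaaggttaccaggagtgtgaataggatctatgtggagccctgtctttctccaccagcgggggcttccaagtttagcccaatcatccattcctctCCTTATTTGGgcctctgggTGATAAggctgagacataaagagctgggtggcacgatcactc
Nppa: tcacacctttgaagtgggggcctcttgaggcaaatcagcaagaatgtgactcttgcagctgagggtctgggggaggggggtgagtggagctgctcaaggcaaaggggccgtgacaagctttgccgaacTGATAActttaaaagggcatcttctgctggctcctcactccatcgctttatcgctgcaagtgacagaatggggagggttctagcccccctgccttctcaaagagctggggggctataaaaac
Acta1: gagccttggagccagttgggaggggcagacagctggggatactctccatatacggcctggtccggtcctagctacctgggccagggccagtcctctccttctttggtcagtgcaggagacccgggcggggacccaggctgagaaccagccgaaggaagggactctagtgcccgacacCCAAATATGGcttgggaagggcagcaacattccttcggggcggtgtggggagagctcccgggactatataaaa
The CArG box was CCAAATAAGG in *Actc1*, CCTTATTTGG in *Myl7* and CCAAATATGG in *Acta1*, and its first base lay 47, 61 and 73 bases before the start. Among the 9 genes with an entry, 2 held a CArG box, against 1.47% of the 32851 windows in the table. The windows of *Actn2* and *Myl4*, whose levels also went with that of *Acta1*, held none, nor did that of *Nppa*. A GATA letter run was found in 4 of them (*Myl7*, *Nppa*, *Tnnt2* and *Pln*), against 16.6% of all windows. A match of letters is a description of the sequence and not evidence of a bound site.

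In 3 libraries the values stood apart from the rest. The first was the library labelled KO 157, whose 2 probes of *Cavin1* stood at 8.47 and 11.66 on the log2 scale. The other 5 KO lungs lay between 1.67 and 2.89 and between 3.60 and 5.37, and the 6 WT lungs between 8.22 and 8.92 and between 11.57 and 11.79. Its title and its description also carry different animal numbers. KO 192 stood apart through heart and liver genes, and WT 187 through skeletal muscle genes. Results are therefore given with and without the library labelled KO 157 and KO 192. Bead signals were background-corrected and quantile-normalized as in RMA, and all levels below are log2 signals. The share of probes detected (detection p under 0.05) was 45.3% to 49.1% per array, and precision is set by the 12 arrays.

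Of the 15 probes, 12 were detected on at least 6 of the 12 arrays, with at least 1 such probe for each of the 9 genes. A second *Myl4* probe (ILMN_1252533) and a second *Sln* probe (ILMN_2662878) were detected on no array, and the dimmest *Actn2* probe (ILMN_1258081) on 1 KO and 1 WT array. At least 1 probe of each of *Myh6*, *Myl7*, *Myl4*, *Tnni3*, *Actc1*, *Actn2*, *Sln* and *Nppa* was detected in every lung of both genotypes.

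No gene of the set passed the test for a difference between KO and WT lungs. In limma's fit with Benjamini-Hochberg adjustment over all probes, 0 of the 12 detected probes and 0 of the 15 passed an adjusted p of 0.05, where 0.148% of all probes passed. At an unadjusted p under 0.05 the count was also 0 of 12, against 13.4% of all probes. For 0 of the 12 were the KO and WT values without overlap, against 1.44% of all probes. The log2 differences (KO minus WT) ran from −0.77 to 0.91 with a median of 0.07, and that of all probes was −0.001. Adjusted p lay between 0.594 and 0.989. Of the 12 probes, 7 had a higher mean in KO lungs and 5 a lower one. SAM and the methods' t-test with Benjamini-Hochberg adjustment called 0 as well. After merging probes by their median, 0 of 9 genes passed (adjusted p 0.652 to 0.996), where 0.199% of all genes did. At an unadjusted p under 0.05 it was also 0 of 9, against 13.7% of all genes. These tests do not show equal expression, since the standard errors of the 12 probes ran from 0.31 to 1.40.

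**Figure D1:**
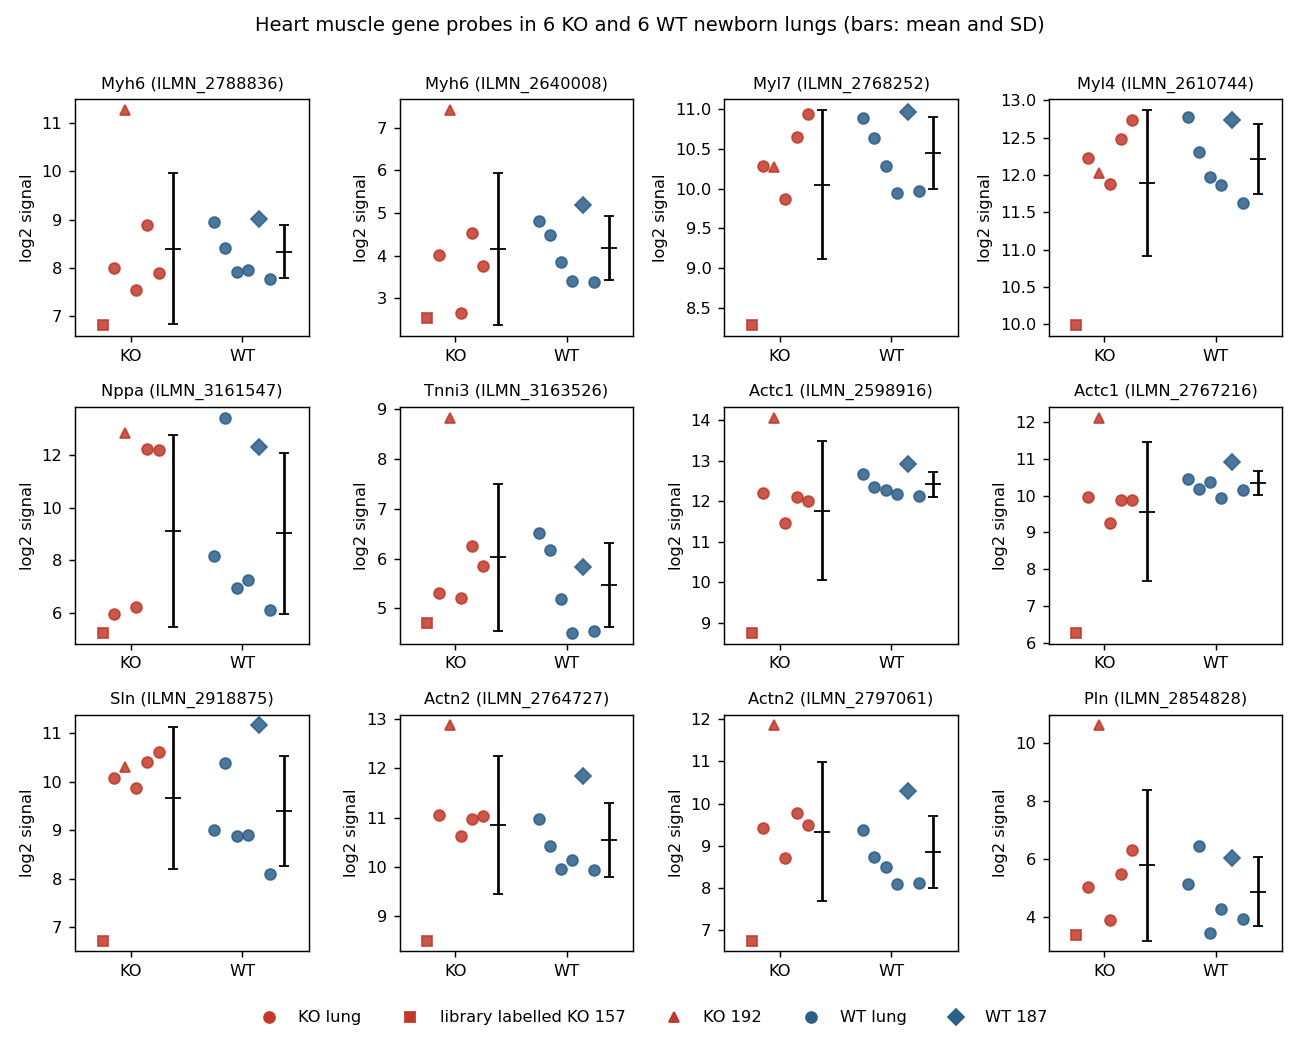
log2 signal of the 12 detected probes in each lung (points), KO on the left and WT on the right of each panel, with mean and SD as bars (n = 6 each). The square is the library labelled KO 157, the triangle KO 192 and the diamond WT 187. The square is the lowest KO point in all 12 panels, and the triangle is the highest KO point in 9.

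The atrial light chains were the steadiest of the set. *Myl7*, the atrial regulatory light chain, read 8.28, 10.28, 10.27, 9.87, 10.65 and 10.94 in KO 157, 186, 192, 235, 237 and 238. It read 10.89, 10.64, 10.28, 9.94, 10.96 and 9.97 in WT 142, 177, 179, 182, 187 and 188. The groups overlapped, and only the library labelled KO 157 lay far below the WT range. KO lungs averaged 10.05 ± 0.94 and WT lungs 10.45 ± 0.45 (SD, n = 6 each), a log2 difference of −0.40 (SE 0.31, adjusted p = 0.628 from limma). Without the library labelled KO 157 it was −0.04 (SE 0.20).

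*Myl4*, the atrial essential light chain, which embryonic skeletal muscle also makes, followed a similar though not identical order of lungs. KO lungs read 9.99, 12.23, 12.03, 11.88, 12.48 and 12.73, and WT lungs 12.77, 12.31, 11.97, 11.87, 12.74 and 11.63. Again only the library labelled KO 157 stood outside the rest. The log2 difference was −0.32 (SE 0.33, adjusted p = 0.720), and 0.06 without that library. Over all lungs, the deviations of *Myl7* and *Myl4* from their genotype means had a Pearson r of 0.99.

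*Myh6*, the α-myosin heavy chain that drives fast contraction in atrium and adult mouse ventricle, separated 1 lung. Its brighter probe (ILMN_2788836) read 6.82, 8.0, 11.26, 7.54, 8.88 and 7.90 in KO lungs and 8.94, 8.42, 7.91, 7.96, 9.02 and 7.78 in WT lungs. KO 192 was the highest of the 12, with a deposited bead signal of 2052 against 191 to 740 in the other 11 lungs. The remaining lungs lay within 6.82 and 9.02, with KO and WT overlapping. The log2 difference was 0.06 (SE 0.49, adjusted p = 0.976), and −0.51 without KO 192 and 0.38 without the library labelled KO 157. The dimmer probe (ILMN_2640008), detected on 4 KO and 4 WT arrays, also put KO 192 first, with a deposited signal of 228 against 94 to 146 in the others. Its difference was −0.04 (SE 0.61).

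*Tnni3*, the cardiac troponin I that replaces the slow skeletal form around birth, gave 4.70, 5.32, 8.83, 5.22, 6.25 and 5.85 in KO lungs and 6.51, 6.17, 5.20, 4.51, 5.84 and 4.55 in WT lungs. KO 192 was again on top, above the deposited signals of 118 to 230 in the other 11 lungs. Below it the genotypes overlapped fully. The difference of 0.56 (SE 0.52, adjusted p = 0.693) was 0.00 (SE 0.36) without KO 192.

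*Actc1*, the cardiac α-actin that is also the main embryonic actin of skeletal muscle, was the tightest gene among WT lungs but spread widely among KO lungs. Its brighter probe (ILMN_2598916) read 8.75, 12.21, 14.06, 11.47, 12.10 and 12.01 in KO lungs and 12.66, 12.35, 12.27, 12.17, 12.91 and 12.13 in WT lungs. WT lungs thus spanned 1.72-fold and KO lungs 39.6-fold. The library labelled KO 157 was 11.0-fold below the median of the other lungs and KO 192 was 3.70-fold above it. The 2 probes had log2 differences of −0.65 (SE 0.52, adjusted p = 0.630) and −0.77 (SE 0.57, adjusted p = 0.594). They stood, once the library labelled KO 157 alone was omitted, at −0.05 and −0.11 (adjusted p = 0.972 and 0.932), and without KO 192 alone −1.11 and −1.29 (adjusted p = 0.208 and 0.178). With both libraries left out, they were −0.47 (SE 0.15, unadjusted p = 0.00559 from limma) and −0.59 (SE 0.16, unadjusted p = 0.00175), and neither passed after adjustment (0.162 and 0.106).

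*Actn2*, the α-actinin of the Z-disc in heart and skeletal muscle, behaved similarly at the extremes. Its brightest probe (ILMN_2764727) read 8.51, 11.06, 12.87, 10.63, 10.98 and 11.03 in KO lungs and 10.97, 10.43, 9.95, 10.14, 11.84 and 9.93 in WT lungs. In WT the highest lung was WT 187, which was also the highest in skeletal *Acta1*. The difference was 0.30 (SE 0.47, adjusted p = 0.836), and 0.48 (SE 0.55, adjusted p = 0.761) at the second probe (ILMN_2797061). Both turned to −0.10 and −0.02 without KO 192.

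The inhibitors of the sarcoplasmic calcium pump differed from each other in KO 192. Pearson r of their values, centred by genotype, was 0.58 over all lungs and 0.81 without KO 192. *Sln* (sarcolipin, the atrial and skeletal form) read 6.72, 10.08, 10.30, 9.87, 10.41 and 10.60 in KO lungs and 9.01, 10.38, 8.87, 8.89, 11.16 and 8.09 in WT lungs. KO 192 was not singled out here, at 1.35-fold the median of the other lungs. The 5 KO lungs other than KO 157 spanned less than the WT lungs did. The log2 difference was 0.26 (SE 0.55, adjusted p = 0.886). Leaving out the library labelled KO 157 gave 0.85 (SE 0.37, adjusted p = 0.372).

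*Pln* (phospholamban, the pump inhibitor of ventricle and slow muscle) was near background in most lungs and high in 1. Its log2 signals were 3.37, 5.05, 10.61, 3.88, 5.47 and 6.31 in KO lungs and 5.14, 6.44, 3.44, 4.29, 6.02 and 3.93 in WT lungs. As deposited, the mean bead signal was 1341 in KO 192 and 104 to 172 in the other 11 lungs, and it was detected on 5 KO and 5 WT arrays. The difference of 0.91 (SE 0.85, adjusted p = 0.699) was −0.06 without KO 192.

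*Nppa*, the precursor of atrial natriuretic peptide, which atrial muscle secretes when stretched, fell into a high and a low set of lungs in both genotypes. It read 5.23, 5.95, 12.85, 6.20, 12.21 and 12.18 in KO 157, 186, 192, 235, 237 and 238. It read 8.14, 13.42, 6.92, 7.25, 12.32 and 6.09 in WT 142, 177, 179, 182, 187 and 188. Thus 3 KO and 2 WT lungs lay between 12.18 and 13.42, and the other 7 lungs between 5.23 and 8.14, with none between. As deposited, the bead signal ran from 128 to 6385 in KO lungs and from 194 to 9353 in WT lungs. The genotype difference was 0.08 (SE 1.40, adjusted p = 0.989), with a 95% interval of −2.84 to 3.0, so a change of several fold either way could not have been seen.

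The range of *Nppa* was not a property of all heart genes. Its SD within genotypes, 3.37, ranked 4 among 21378 detected probes, whose median was 0.29. *Pln* (2.02) ranked 34. *Myl4* (0.77) and *Myl7* (0.74) ranked 1039 and 1242. In WT 177, which had the highest *Nppa* of all, *Myl7* (10.64), *Myl4* (12.31), *Myh6* (8.42) and *Actc1* (12.35) were inside the range of the other WT lungs. *Pln* (6.44) was there above every other WT lung. The lungs of the high *Nppa* set were also the highest for *Sln* and *Pln*, though by small steps. They read 10.30 to 11.16 for *Sln*, with the others at most 10.08, and 5.47 to 10.61 for *Pln*, with the others at most 5.14. In KO 237 and KO 238, also high in *Nppa*, the brighter *Myh6* probe read 8.88 and 7.90.

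**Figure D2:**
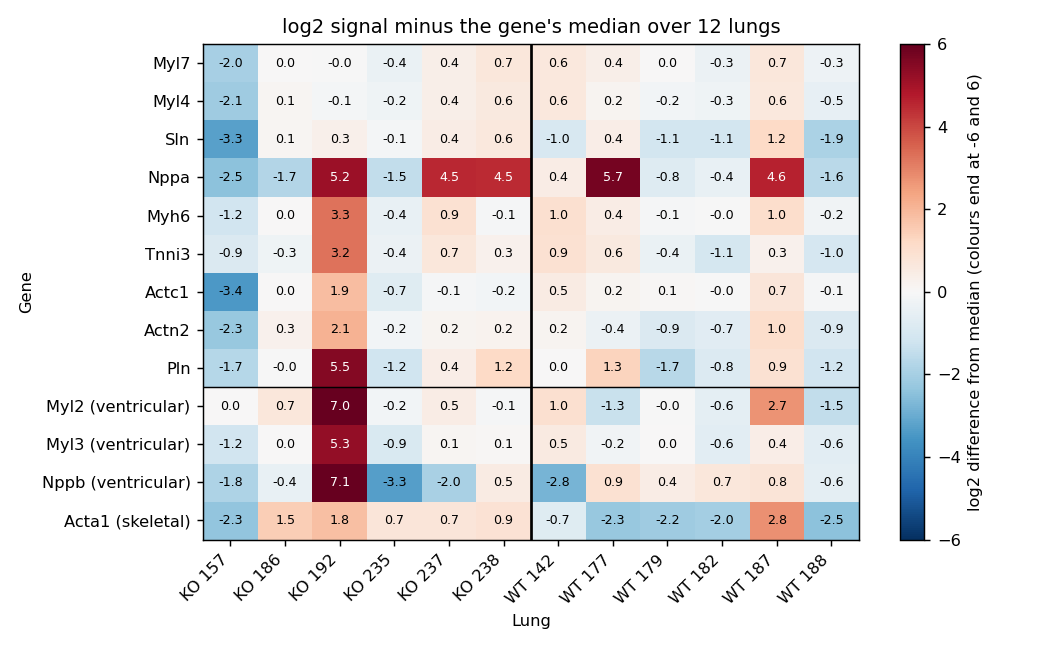
log2 signal of each gene (rows, brightest probe for the 9 heart muscle genes and *Acta1*, merged gene for *Myl2*, *Myl3* and *Nppb*) less its median over the 12 lungs (columns, KO left of the line and WT right). *Nppa* is high in 5 lungs of both genotypes, while *Myh6*, *Tnni3*, *Pln* and the ventricular genes are highest in KO 192.

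The KO libraries that stood apart did so in different ways. The library labelled KO 157 was the lowest of all 12 lungs for 11 of the 12 probes and the lowest KO lung for 12 of 12. It lay 4.74-fold below the median of the other lungs for *Myl4* and 4.0-fold below for *Myl7*, and its deposited *Sln* signal was 185, where the others lay between 455 and 2659. Skeletal *Acta1* read 8.72 there, against 11.79 to 12.86 in the other 5 KO lungs. Smooth muscle markers were lowest of 12 in this library for 7 of 10 genes. Lung epithelial markers had their highest mean in it, at 11.63, where the other lungs lay between 11.45 and 11.62.

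KO 192 was the highest of 12 for 8 of the 12 probes, but not for *Myl7*, *Myl4*, *Sln* or *Nppa*. *Myl7* (0.991-fold the median of the others), *Myl4* (0.869-fold) and *Sln* (1.35-fold) were ordinary in it. *Nppa*, the atrial peptide, read 12.85 there, the highest KO value and below WT 177 alone. Genes of ventricular muscle were not. *Myl2*, the ventricular regulatory light chain, read 14.55 in KO 192, where the other 11 lungs lay between 6.04 and 10.24. *Myl3*, the ventricular essential light chain, read 14.24 against 7.83 to 9.53, and *Nppb*, the precursor of the ventricular natriuretic peptide, read 12.40 against 1.98 to 6.20. Myoglobin (*Mb*) read 12.05 against 3.57 to 7.98. Of 6 ventricular genes measured, 5 were highest in KO 192. These 5 include *Irx4*, detected on no array, and *Myh7*, detected on 1 array only. Liver genes were also high in this lung: 7 of 8 hepatocyte markers were highest in KO 192, with *Apoa1* at 11.09 and *Ahsg* at 11.96. Of these, *Alb* was detected on 1 array only. Per lung, the mean of the hepatocyte list ran from 4.48 to 8.59 in KO and from 4.84 to 6.37 in WT. The part of ventricular or liver RNA in the values of the 12 probes was not tested.

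Without the library labelled KO 157, 0 of 12 probes passed the threshold (background 0.0552% of all probes), 3 had an unadjusted p under 0.05 (background 11.9%) and the median difference was 0.57. Without KO 192, 0 of 12 passed (background 1.28%), 2 had an unadjusted p under 0.05 (background 14.7%) and the median was −0.40. The sign of the median thus turned with the library left out. With both out, 0 of 12 passed (background 0.603%), adjusted p ran from 0.106 to 0.991, and the median of 0.11 lay close to that of the full fit. Then 3 of 12 had an unadjusted p under 0.05, against 13.1% of all probes. They were the 2 of *Actc1* and that of *Sln* (0.84, SE 0.40, adjusted p = 0.375).

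**Figure D3:**
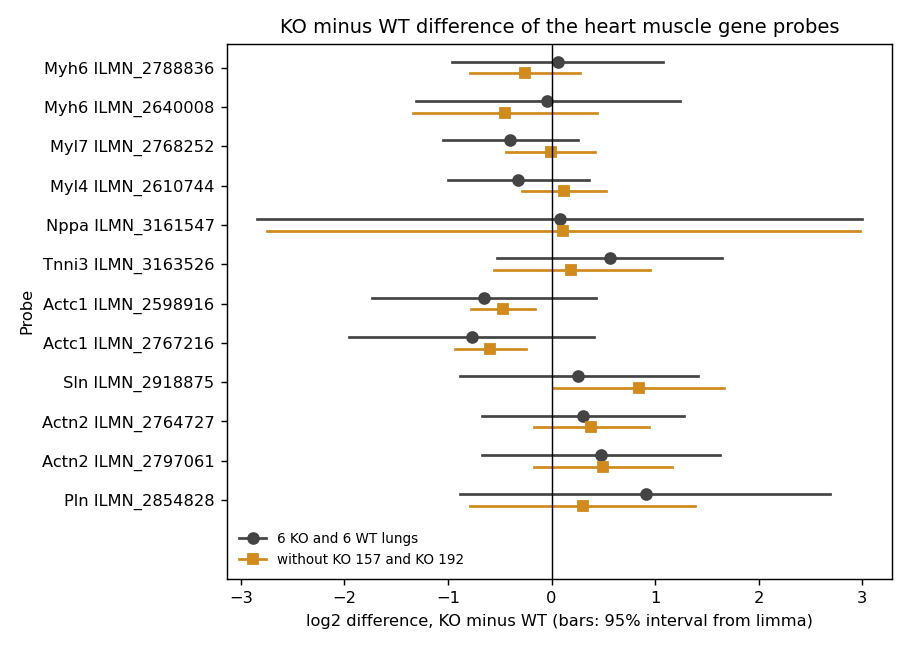
KO minus WT difference on the log2 scale (x axis) of each detected probe (y axis), with the 95% interval from limma, for 6 KO and 6 WT lungs (circles) and with KO 157 and KO 192 left out (squares). All 12 intervals of the full comparison include 0, and those of *Nppa* are the widest.

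The rest of the heart programme was read from fixed lists of merged genes, with no set test. The median over all 19057 genes was −0.011. No gene passed the threshold in any heart list. Of 10 other sarcomere genes, 8 were higher in KO with a median of 0.13, and 5 with a median of 0.00 when KO 157 and KO 192 were both left out. They include *Tpm1* (tropomyosin, −0.24, SE 0.09, adjusted p = 0.253) and *Myom1* (myomesin, 0.63, SE 0.28, adjusted p = 0.329). Of 12 calcium handling and ion channel genes, 8 were higher (median 0.08), and 6 without both libraries (0.07). The smallest p was that of the atrial connexin *Gja5*, which arterial endothelium also makes (−0.74, SE 0.23, adjusted p = 0.165). For *Gja5*, KO lungs read 7.19 to 8.77 and WT lungs 8.46 to 9.31.

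Among 5 atrial secreted and processing genes, 2 were higher (3 with median scaling), with a median of −0.04 that turned to 0.03 with median scaling. *Corin*, the protease that activates the *Nppa* product, averaged 8.26 ± 0.50 in KO lungs and 7.59 ± 0.42 in WT lungs (difference 0.67, SE 0.23, adjusted p = 0.200, n = 6 each). *Bmp10*, a ligand secreted by the atrium, was detected on no array. Of 8 heart transcription factors, 4 were higher (median −0.06), and 2 without both libraries (−0.17). *Tbx5*, which lung mesenchyme also expresses, was detected on 12 arrays, whereas *Nkx2-5*, which defines heart muscle and the vein sleeve, was detected on 2 and *Gata4* on 1. The label of the set comes from the symbols chosen, so its own genes are no separate support for it. *Myh6*, *Myl7*, *Nppa* and *Tnni3* were listed as largely restricted to heart muscle. The others were listed as also used by embryonic or slow skeletal muscle.

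All 6 heart energy metabolism genes were higher in KO lungs (median 0.98), and all 6 were highest in KO 192. For all but *Fabp3*, WT 187, the lung highest in skeletal *Acta1*, came next, with *Ckm* at 9.83 and *Mb* at 7.98. The part of skeletal muscle RNA in them was not tested. Without KO 192 their median was 0.24, and without both libraries 0.60. *Cox6a2*, the heart and muscle subunit of cytochrome oxidase, differed by 1.12 (SE 0.45, adjusted p = 0.295) and *Fabp3*, the heart fatty acid carrier, by 1.01 (SE 0.44, adjusted p = 0.330). *Cavin4*, the muscle member of the cavin family, differed by 0.79 (SE 0.27, adjusted p = 0.210), and both it and *Cav3*, the muscle caveolin, were higher in KO. *Cav3* was detected on only 5 arrays. Their median of 0.83 was 0.25 without background correction, 0.35 with an offset and 0.54 with neqc, which estimates background from the detection p. Ventricular genes had a median of 0.30, and −0.19 without KO 192.

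Other cell types in the dissected tissue gave these values. Skeletal muscle markers had 16 of 21 genes higher in KO with a median of 0.79, 7 of them at an unadjusted p under 0.05 (13.7% of all genes) and 0 past the threshold. The size of that median hung on the background correction: it was 0.13 with none, 0.17 with an offset, 0.37 with neqc and 0.39 in the authors' processed values, with 15 or 16 of 21 genes higher in each. Their mean per lung ran from 4.24 to 6.88 in KO and from 3.97 to 7.85 in WT, with *Myh8* (2.88, SE 0.93, adjusted p = 0.184) the gene of smallest p, and *Myod1* was detected on no array. Without both libraries 17 of 21 were higher, with a median of 0.82. Smooth muscle markers had 0 of 10 higher with a median of −0.36 (−0.13 without background correction), and 3 of 10 with −0.24 when both libraries were left out. In the authors' processed values 1 of the 10 was higher. Hepatocyte markers had 7 of 8 higher (median 0.97, 0.54 without background correction and 1.06 without both libraries), thymocyte markers 5 of 8 (0.12), endothelial markers 4 of 6 (0.16), lung epithelial markers 7 of 10 (0.06) and erythroid markers 1 of 3 (−0.03, and 0 of 3 with median scaling). None of these genes passed. Without KO 192, *Scgb1a1* of club cells (−0.50, adjusted p = 0.00821) and the endothelial genes *Pecam1* (0.50, adjusted p = 0.0339) and *Tie1* (0.53, adjusted p = 0.0396) did.

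Newborn skeletal muscle also makes *Actc1*, *Actn2*, *Myl4* and *Sln*, so each probe was set against *Acta1*. *Acta1* is itself made by newborn heart muscle. It read 8.72, 12.55, 12.86, 11.79, 11.80 and 11.93 in KO 157, 186, 192, 235, 237 and 238, and 10.35, 8.81, 8.92, 9.03, 13.83 and 8.61 in WT 142, 177, 179, 182, 187 and 188. Most KO lungs lay above most WT lungs, with WT 187 highest and KO 157 among the low lungs. The log2 difference was 1.68 (SE 0.73, adjusted p = 0.323 from limma). Without the library labelled KO 157 it was 2.26, and without KO 192 it was 1.43 (adjusted p = 0.206 and 0.446 from limma on merged genes).

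After each genotype was centred on its mean, 7 of 12 probes correlated with *Acta1* over the 12 lungs (permutation within genotype, two-sided, Benjamini-Hochberg over 12 relations). At an unadjusted permutation p under 0.05 it was 9 of 12, against 6.67% of 21377 detected probes put through the same test. Adjusted over all of these, 0 of 12 and 0 of 21377 passed. *Actn2* was closest, with Pearson r = 0.85 (permutation p = 0.00013, adjusted 0.00078) and Spearman rho = 0.94 (permutation p = 6e-05). *Actc1* had r = 0.69 (permutation p = 5e-05, adjusted 0.0006) and rho = 0.87 (permutation p = 7e-05). *Sln* had r = 0.80 (permutation p = 0.0109, adjusted 0.0187), *Myl4* r = 0.73 (permutation p = 0.0091, adjusted 0.0182) and *Myl7* r = 0.71 (permutation p = 0.00858, adjusted 0.0182), with rho of 0.62, 0.73 and 0.72. The second probes of *Actc1* (r = 0.68) and *Actn2* (r = 0.81) also passed. *Myh6* (0.58 and 0.59), *Pln* (0.51) and *Tnni3* (0.47) did not, with adjusted p from 0.0622 to 0.108. *Nppa* did not pass either. No pooled r of its own with *Acta1* is given, because its lungs fell into separate sets of 5 and 7. It still enters the medians of r given below.

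The number of probes that passed changed with the lungs left out. Without WT 187 and WT 188, the lungs farthest from the *Acta1* median, *Actn2* kept r = 0.91 (permutation p = 0.00258), *Actc1* r = 0.91 (permutation p = 0.00119), *Myl4* r = 0.87 (permutation p = 0.0376) and *Myl7* r = 0.83 (permutation p = 0.0483). For *Sln* r was 0.77, close to its value over all lungs, but no longer past 0.05 over 10 lungs (permutation p = 0.114). Without WT 187 alone 4 of 12 probes passed, those of *Actc1* and *Actn2*, although the median r of the 12 was 0.81, against 0.68 over all lungs. Then *Actc1* had r = 0.91, *Myl4* 0.87 and *Myl7* 0.84. Without the library labelled KO 157, 6 probes passed and the median r was 0.47. *Myl7* (r = 0.52, adjusted permutation p = 0.128), *Myl4* (r = 0.57, adjusted permutation p = 0.128) and *Sln* (r = 0.69, adjusted permutation p = 0.111) then did not pass, and both *Myh6* probes did (adjusted permutation p = 0.0104 and 0.00766). With that library and KO 192 both out, 5 passed. Within KO lungs *Actn2* had r = 0.92 (exact permutation p = 0.00139, adjusted 0.0334) and within WT lungs r = 0.95 (exact permutation p = 0.0153, adjusted 0.0582, n = 6 each). In *Actc1* they were 0.95 (exact permutation p = 0.00417) within KO and 0.92 (exact permutation p = 0.0139) within WT. The part of skeletal muscle RNA in these values was not tested.

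**Figure D4:**
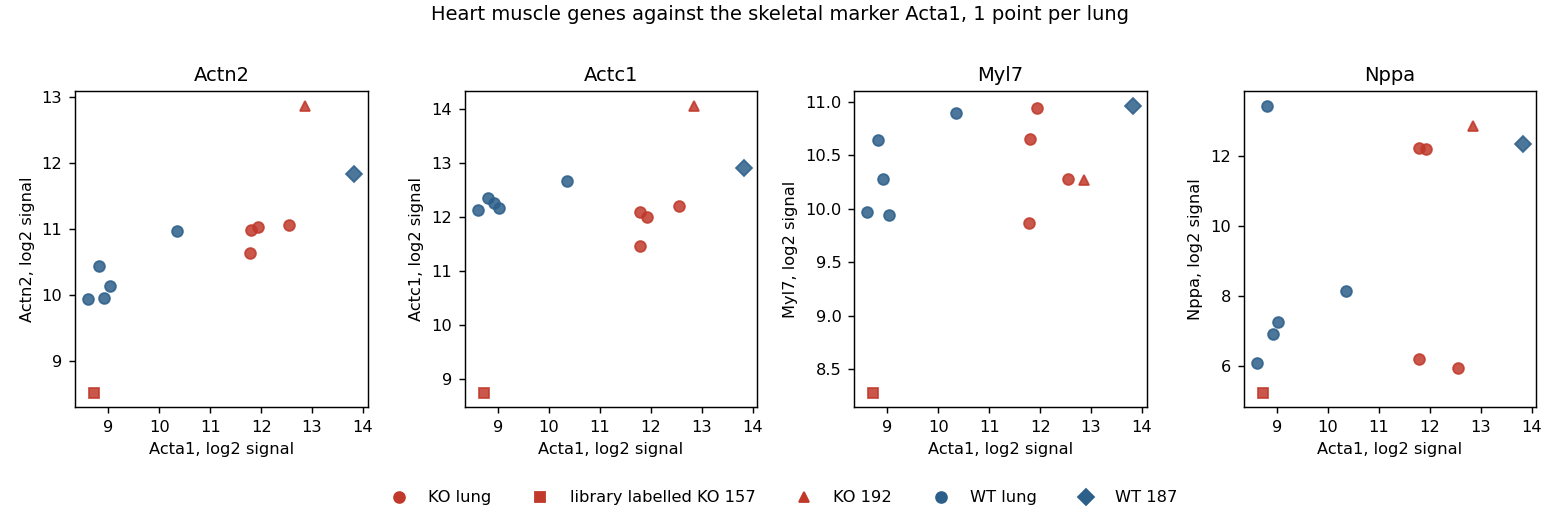
log2 signal of *Actn2*, *Actc1*, *Myl7* and *Nppa* (y axes, brightest probes) against that of *Acta1* (x axes), 1 point per lung, with the marks of the plot of levels by lung. *Actn2* runs up with *Acta1* in both genotypes, *Actc1* is nearly level over most lungs, and *Nppa* is high in WT 177, where *Acta1* is 8.81.

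With *Acta1* as a covariate in the linear model, 0 of 12 probes passed. *Actn2* then differed by −0.59 and −0.53, *Sln* by −0.73 and *Nppa* by −1.49, each opposite in sign to the fit without it. Adjusted p was 0.405 to 0.712 for these 4.

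Among themselves the heart muscle genes varied together across lungs. Over 63 pairs of probes of different genes, Pearson r of the centred values had a median of 0.77 (0.47 to 0.99), and 0.77 (0.44 to 0.97) with KO 157 and KO 192 both left out. The light chains *Myl7* and *Myl4* were the closest pair. *Myh6* and *Myl7* had r = 0.52 over all lungs and 0.84 without KO 192. These are descriptions over 12 lungs that share whatever tissue was dissected with them.

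The genes whose pattern was most like the set were sought among 18352 other detected probes with 1 gene, by Pearson r over the 12 centred lungs with the mean of *Myh6*, *Myl7*, *Nppa* and *Tnni3*. The 10 highest ran from 0.95 to 0.91. They were *Cox6b1*, *Ndufs7* and *Atp5mpl* (0.95, 0.94 and 0.94), then *Ndufv3*, *Pgam2*, *Acadvl* and *Klhl30* (0.92 each), then *Ndufa8*, *Mgmt* and *Mrpl15* (0.91 each). *Pgam2* encodes the muscle form of phosphoglycerate mutase, and read 6.59, 8.04, 10.38, 7.55, 8.25 and 8.35 in KO lungs and 8.32, 8.65, 7.45, 7.69, 9.38 and 6.97 in WT lungs. *Cox6b1*, a subunit of cytochrome oxidase, moved far less, from 11.91 to 12.57 in KO lungs and from 11.94 to 12.32 in WT lungs. KO 192 was the highest or level with the highest lung for each of the 10. Without KO 192, 5 of the 10 were named again, and 6 without the library labelled KO 157. The mean was of unscaled log2 signals, so *Nppa*, with an SD within genotypes of 3.37, weighed most in it. The SD was 1.16 for *Myh6*, 1.20 for *Tnni3* and 0.74 for *Myl7*. With each of the 4 genes scaled to unit SD, 6 were named again. *Asb2* (r = 0.96), *Tnnc1*, *Hspb6* and *Cox7a1* (0.95 each) then came in.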

How the data were processed

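Lung RNA of 6 KO and 6 WT newborn mice was hybridized to Illumina MouseWG-6 arrays. The study describes littermates and pairs, but the labels name no pairs, so no pairing entered the fits. The authors deposited the mean bead intensity of each probe as GenomeStudio writes it, neither background-subtracted nor normalized, and the detection p-value of each probe was deposited by the authors beside them. Array medians lay between 97.0 and 121.5. A second table deposited by the authors held background-subtracted, quantile-normalized intensity values on a linear scale, and was used as an alternative only, with values under 16 set to 16.

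In R 4.3.3, signals were background-corrected with RMA's normal-exponential model, then quantile-normalized and put on the log2 scale. Low probes keep their background noise in such values, and quantile normalization makes every array's distribution equal. Of 45281 probes, 34885 had 1 gene in the probe annotation, 18 had several and 10378 none. Probes were tested singly with limma 3.58.1 (mean-variance trend, Benjamini-Hochberg over all probes, threshold 0.05) and as 19057 genes merged by their median, as the methods describe. Relations with *Acta1* used values centred by genotype and 100000 permutations within genotype, in Python 3.11.15 with scipy 1.17.1, or exact permutation within a genotype. The tests were tested on simulated data. Plots were drawn with matplotlib 3.10.9.

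The genes, lists and tests were chosen with earlier results of these data known. Named are every probe of the set and of *Acta1*, from each other list the genes past the threshold and up to 3 detected genes of smallest p, and the 10 genes most similar in pattern. Genes that came into the similarity search with scaling to unit SD are named too. *Mb*, *Nppb*, *Irx4*, *Myh7*, *Bmp10*, *Nkx2-5*, *Gata4*, *Alb*, *Myod1* and *Cav3* were picked in addition, after their values were seen. The library labelled KO 157 was kept under its label. Alternatives were other background corrections, scaling, the authors' processed values, detection filters, other tests, *Acta1* as a covariate, the brightest probe and each array left out. For the relations, *Mylpf* in place of *Acta1* was a further one. Leaving out KO 157 and KO 192 together, and the repeats of the similarity search, were chosen after seeing the data. SAM was written in R, with 100 permutations at q = 0. Which BeadChip carried which array is not given in the sources used here, and no chip term entered the fits.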

Additional observations from a re-analysis of the deposited data

Results flagged for a closer look

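In 20 of 108 groups of 6 lungs examined, the highest or lowest lung lay far from the other 5 of its genotype by Dixon's criterion, where chance gives about 1 in 20 groups. The genes share libraries, so these are not independent. *Nppb* was added to the genes examined after its values were seen, and it is among those flagged. The library labelled KO 157 accounted for 7, KO 192 and WT 187 for 6 each and KO 238 for 1.

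Among KO lungs, the library labelled KO 157 was far below the rest for *Myl4* (9.99, next 11.88), *Sln* (6.72, next 9.87) and *Acta1* (8.72, next 11.79). It was also far below for the skeletal genes *Myh8* (5.71), *Tnnc2* (5.86) and *Atp2a1* (6.34) and for the smooth muscle actin *Acta2* (8.59). KO 192 was far above the rest for *Myl2* (14.55, next 8.20), *Myl3* (14.24, next 9.12) and *Nppb* (12.40, next 5.79), and for *Myom1* (8.87), *Cox6a2* (12.72) and *Scgb1a1* (14.62). KO 238 was far below for *Gata6* (7.0, next 7.53).

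Among WT lungs, WT 187 was far above the rest for *Acta1* (13.83, next 10.35), *Myh8* (10.46), *Atp2a1* (11.80), *Ckm* (9.83), *Cavin4* (6.94) and *Tbx20* (4.44).

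Of the 12 detected probes of the heart muscle set, only those of *Myl4* and *Sln* were among these. *Nppa* was not, since its high lungs come in groups of 3 among KO and 2 among WT. No explanation was tested.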

How the results depend on the processing

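The counts of 0 detected probes and 0 merged genes of the set past the threshold did not change under any alternative tried, which were those of the methods section. No paired analysis was possible because the labels do not say which KO animal went with which WT animal. The study describes its lungs as coming in pairs, but no animal number is shared by a KO and a WT label. The number of other listed genes past the threshold, 0, was 1 with array weights, 1 with KO 157 and KO 192 both left out, and 0 to 3 with 1 array left out, 3 being the count without KO 192. The number of probes related to *Acta1*, 7, was 4 to 9 with 1 array left out (4 without WT 187, 9 without KO 192 or without WT 177), 9 with median scaling and 10 with Spearman's rho. With the skeletal light chain *Mylpf* in place of *Acta1* it was also 7, with r from 0.46 to 0.82 and a median of 0.64.

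Signs of small differences turned in these cases. *Myh6* ILMN_2640008 became 0.11 without background correction, 0.15 with neqc, 0.15 with an offset and 0.25 with the authors' values. *Cd8b1* became 0.10 without background correction and 0.05 with the offset, *Ptcra* 0.17 with the authors' values, *Hba-a1* −0.12 with median scaling and *Slc8a1* −0.05 with the detection filter at 0.05. With *Acta1* as a covariate, *Myh6* ILMN_2788836 became −0.58, *Nppa* −1.49, *Sln* −0.73, *Actn2* −0.59 and −0.53, *Pln* −0.07, *Myl2* −0.03, *Myl3* −0.06, *Ckm* −0.48, *Rag1* −0.08 and *Slc4a1* 0.13. With KO 157 and KO 192 both out, *Myh6* ILMN_2788836 became −0.26, *Myl4* 0.12, *Myl3* −0.09 and *Cd8b1* 0.89. With 1 array left out, the sign turned within −0.69 to 0.29 for *Myh6* ILMN_2640008 (6 arrays), −0.51 to 0.38 for ILMN_2788836 (5), −0.67 to 0.96 for *Nppa* (7) and −0.22 to 0.13 for *Slc4a1* (4). For 1 array each it turned within −0.10 to 0.77 and −0.02 to 1.0 for *Actn2*, −0.49 to 0.06 for *Myl4*, −0.06 to 1.39 for *Pln*, −1.38 to 0.06 for *Cd8b1*, −0.28 to 1.0 for *Myl3*, −0.45 to 0.04 for *Ptcra* and −0.19 to 0.98 for *Rag1*. The cause was not tested. *Actc1* and *Myl7* kept a negative sign and *Tnni3* was never below 0 in all settings. Signal over background limits *Pln* and the dimmer *Myh6* probe, which lie near the detection limit in most lungs.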
